A study of Oryza sativa with 18 samples.

Results

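Phytosulfokine is a small sulfated peptide hormone of plants. Of the 56508 rice loci in the count table, 5 were taken as its precursor and its receptor-type kinases. They are LOC_Os12g05260 on chromosome 12, LOC_Os07g01710 on chromosome 7, LOC_Os04g57630 on chromosome 4, LOC_Os06g47760 on chromosome 6 and LOC_Os02g41890 on chromosome 2. The choice went by locus identifier. Each has 1 transcript model in the table, and all 5 passed the filter on low counts, which kept 22703 loci with at least 1 CPM (the count relative to all counts of its library) in no fewer than 3 libraries. The choice was made with values of these libraries in view, because 4 of the 5 loci stand in the study's lists of genes changed at 7 days post-treatment (dpt). The values of 7 dpt are therefore given as a description without a test, and LOC_Os02g41890 is the locus outside those lists.

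Whole roots of rice (Oryza sativa cv. Nipponbare) were sequenced in 6 groups of 3 biological replicates, 18 libraries in all. Seedlings grown for 7 days on low-nitrogen Fahraeus medium spent 1 h in a solution of the synthetic auxin 2,4-D (50 µM) or in the solution alone (mock) and were returned to the medium until 1, 7 or 14 dpt. At 7 and 14 dpt the 2,4-D RNA came only from roots that carried nodule-like structures (NLS), so 2,4-D and the presence of NLS cannot be told apart there, and the roots of 1 dpt are labelled as without NLS. By the sample labels the libraries of 1 dpt were sequenced in another batch than those of 7 and 14 dpt, so time and batch cannot be told apart, although 2,4-D and mock shared a batch at each time. In whole roots, fewer cells of a type and less RNA per cell cannot be told apart either.

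Phytosulfokine was first known as a factor in conditioned plant cell cultures that lets sparsely sown cells divide. In Arabidopsis a precursor protein is sulfated on tyrosines, cut by subtilases (serine proteases of the secretory pathway) and bound outside the cell by leucine-rich repeat receptor kinases, which act with a BAK1-type co-receptor, plasma membrane H(+)-ATPases and a cyclic nucleotide-gated channel. In roots the peptide is known to promote elongation, and in the legume Lotus japonicus it has been tied to nodule number. The study's tables name LOC_Os12g05260 as phytosulfokine 3 precursor. They name LOC_Os07g01710 as phytosulfokine-alpha receptor 2, LOC_Os04g57630 as phytosulfokine receptor 1 and LOC_Os06g47760 as a leucine-rich repeat receptor-like kinase and phytosulfokine receptor precursor. No source used here annotates LOC_Os02g41890, which was grouped with the receptors by the choice of loci alone.

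The precursor transcript was also one that the study amplified by RT-PCR. Its 2 primers, 20 bases each with 55% and 50% G and C, are shown because they are the sequence that ties the identifier to a measured RNA. The primer list calls their target a phytosulfokine receptor, whereas the gene lists call the same identifier the precursor.
LOC_Os12g05260.1 forward: gactggtcgtcgttcttctc
LOC_Os12g05260.1 reverse: gcataatcctgctgcttcct

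Library totals ran from 9416952 to 18057748 counts (median 13489839). On the first principal component, which held 42.5% of the variance of log2 CPM, 2,4-D replicate 3 of 7 dpt lay at 42.2 against 107.5 and 116.2 for the other 2,4-D libraries of that time, and mock replicates 1 and 2 of 14 dpt lay at -34.7 and -17.3 against -79.3 for replicate 3. These 3 libraries stood nearer to the other treatment than the rest of their groups did. So did mock replicate 3 of 1 dpt (-81.5 against -110.4 and -120.1) and mock replicates 2 and 3 of 7 dpt (-63.1 and -58.5 against -100.3). The mean correlation with the own group was 0.928, 0.909 and 0.920 for mock replicates 1, 2 and 3 of 14 dpt, highest for replicate 1. For the 5 loci, the log2 fold changes of 7 and 14 dpt are given with and without the first 3 libraries. The values of all other genes come from all 18 libraries and were not checked in this way. An auxin-responsive GH3 gene (LOC_Os05g42150) averaged 168 ± 27.6 CPM in 2,4-D roots and 3.45 ± 0.43 CPM in mock roots at 1 dpt, and 182 ± 37.7 CPM against 3.48 ± 1.14 CPM at 14 dpt (SD, n = 3 each), so the treatment labels and this gene went together. Of the 2 root aquaporin markers of the NIP family, LOC_Os02g51110 averaged 398 ± 202 CPM in 2,4-D roots and 1338 ± 425 CPM in mock roots at 14 dpt and LOC_Os06g12310 averaged 3.68 ± 2.88 CPM against 61.0 ± 18.8 CPM (SD, n = 3 each). Both were called lower there, and LOC_Os06g12310 was also called lower at 1 dpt. The leaf marker, a PsbP-family gene of photosystem II (LOC_Os01g70820), averaged 15.7 ± 1.96 CPM in 2,4-D roots and 7.86 ± 2.28 CPM in mock roots at 1 dpt. It averaged 18.9 ± 5.34 CPM against 6.23 ± 0.848 CPM at 7 dpt and 19.8 ± 9.26 CPM against 11.9 ± 9.67 CPM at 14 dpt (SD, n = 3 each). All its 2,4-D libraries lay above all mock libraries at 1 and 7 dpt and overlapped at 14 dpt. The gene was not called at 1 or 14 dpt (edgeR adjusted p = 0.185 and 0.304). The part of these shifts in the differences of the 5 loci was not tested.

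At 1 dpt the precursor and 1 receptor gene were higher in 2,4-D roots, and none of the 5 was lower. The precursor LOC_Os12g05260 was 2.81-fold higher and LOC_Os04g57630 was 2.12-fold higher, while the other 3 loci overlapped between treatments. Each time was tested in a single fit of all 18 libraries with edgeR's quasi-likelihood test, with Benjamini-Hochberg adjustment over all 22703 loci. A call needed an adjusted p under 0.05 and a log2 fold change of 1 or more in size. Of all loci tested, 4.22% were called higher at 1 dpt and 7.01% lower, against 2 and 0 of these 5. None of the 5 was lower at an unadjusted p under 0.05 either, and DESeq2 and limma-voom also called 0 lower. Among the 1286 loci called higher at 7 dpt in this fit 39% were also called higher at 1 dpt and 0.467% were called lower. That set is without LOC_Os04g57630 and LOC_Os06g47760, whose fold changes at 7 dpt missed the threshold. Because most of the loci were chosen by 7 dpt, nothing is read from the 0 called lower. The median log2 fold change of the 5 loci was 0.66, beside 0.02 over all loci.

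The precursor had 89.5, 68.1 and 111.6 CPM in 2,4-D roots of 1 dpt, against 28.8, 34.1 and 33.0 CPM in mock roots. CPM here are counts scaled to the library's total over the tested loci times its TMM factor. Every 2,4-D library lay above every mock library, and the lowest of them was at 68.1 CPM where the highest mock library was at 34.1 CPM. The log2 fold change was 1.49 (SE 0.437, 95% interval 0.56 to 2.42, edgeR adjusted p = 0.0360). This gene is a precursor of the peptide by its name, and the peptide was not measured. Its 3 mock libraries of 1 dpt were its lowest of all 18.

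LOC_Os04g57630, named phytosulfokine receptor 1, had 64.8, 59.4 and 72.1 CPM in 2,4-D roots of 1 dpt, against 30.4, 29.7 and 32.6 CPM in mock roots. The replicates of both treatments were tight, and the groups did not overlap. Its log2 fold change was 1.08 (SE 0.295, 95% interval 0.45 to 1.71, edgeR adjusted p = 0.0266). These 2 loci were the ones among the 5 with all 2,4-D libraries above all mock libraries at 1 dpt, an arrangement seen in 18.2% of all loci. Both calls of 1 dpt ended when any 1 of the 6 libraries of that time was left out. The precursor's adjusted p then ran from 0.0610 to 0.119 and that of LOC_Os04g57630 from 0.0529 to 0.116, with both log2 fold changes still above 1. The fit with replicate number as a block gave adjusted p = 0.0535 for the precursor and 0.0729 for LOC_Os04g57630, and the fit without a filter on low counts gave 0.0642 for the precursor.

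The other receptor-type genes showed no called change at 1 dpt. LOC_Os07g01710, named phytosulfokine-alpha receptor 2, had 14.0, 13.6 and 24.0 CPM in 2,4-D roots, against 14.0, 11.7 and 6.83 CPM in mock roots. Only replicate 3 of the 2,4-D roots stood clear of the mock libraries, and the log2 fold change was 0.66 (SE 0.350, 95% interval -0.09 to 1.41, edgeR adjusted p = 0.233). LOC_Os06g47760, the receptor-like kinase with the fewest counts of the 5, had 10.5, 10.6 and 8.26 CPM in 2,4-D roots, against 4.73, 5.42 and 9.26 CPM in mock roots. Mock replicate 3 lay above 2,4-D replicate 3, and the log2 fold change was 0.60 (95% interval -0.01 to 1.21, edgeR adjusted p = 0.179). LOC_Os02g41890 had 53.0, 51.2 and 50.4 CPM in 2,4-D roots, inside the mock values of 53.4, 40.0 and 62.3 CPM. Its log2 fold change was -0.01, and the 95% interval of -0.48 to 0.46 leaves room for a difference of that size in either direction.

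**Figure D1:**
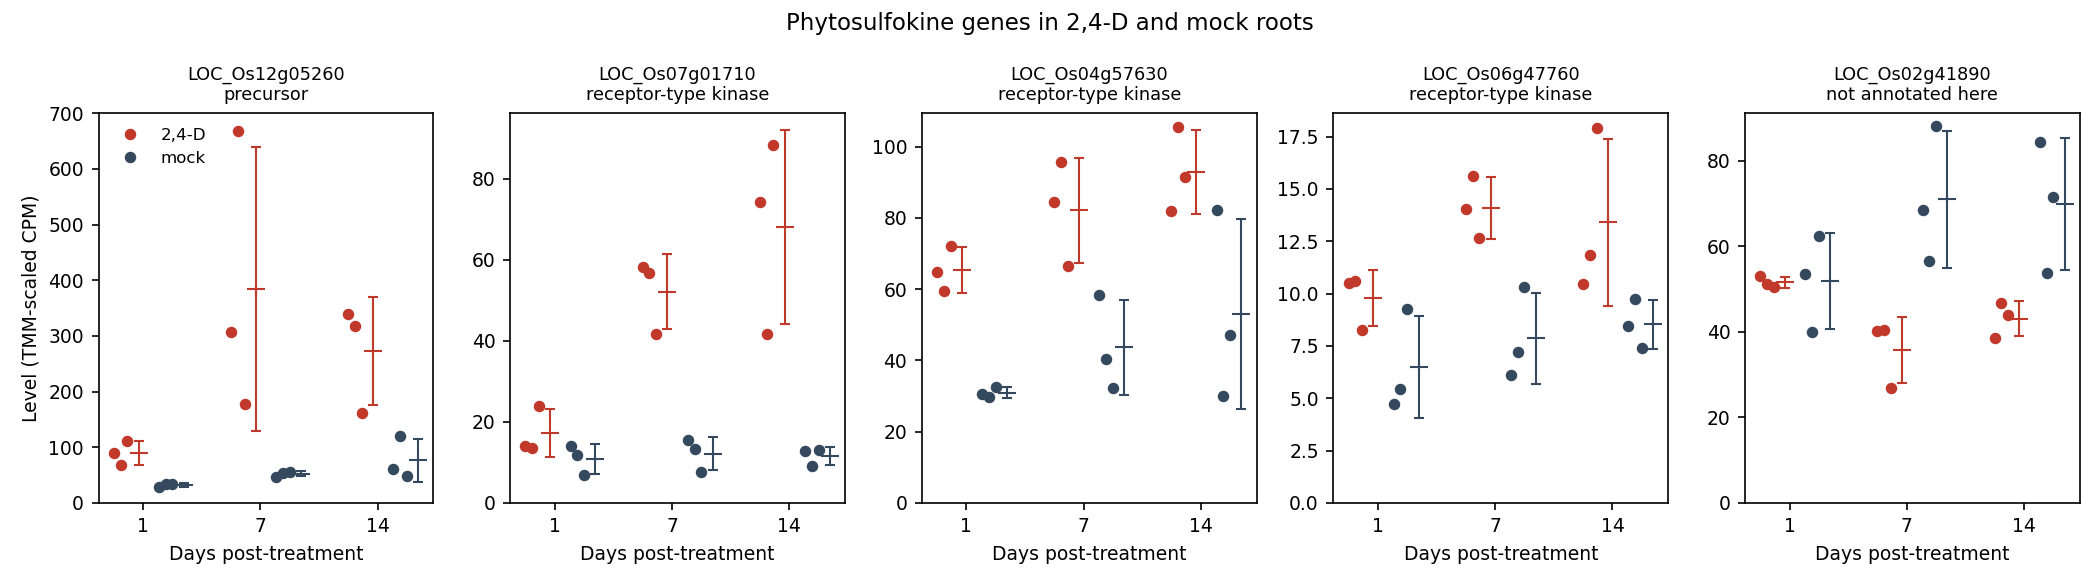
Level of each of the 5 loci in every library, in TMM-scaled CPM on the vertical axis of its own panel, by days post-treatment, with 2,4-D roots (red) left of mock roots (blue). Points are the 3 replicates, and the bar beside them is their mean ± SD. The precursor LOC_Os12g05260 lies higher in all 2,4-D libraries of each time, LOC_Os07g01710 separates at 7 and 14 dpt, and LOC_Os02g41890 lies lower in 2,4-D roots at 7 and 14 dpt.

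At 7 dpt, the time by which most of the loci were chosen, the values are a description. The precursor had 306, 668 and 177 CPM in 2,4-D roots, against 47.0, 54.0 and 55.9 CPM in mock roots. The mock replicates lay within 10 CPM of each other, while the 2,4-D replicates spread widely, with the library that stood apart (replicate 3) at the low end. The fitted log2 fold change was 2.88 (SE 0.456), 3.30 without that library and 2.21 without replicate 2, the highest. LOC_Os07g01710 had 58.2, 56.7 and 41.6 CPM in 2,4-D roots, against 15.5, 13.4 and 7.60 CPM in mock roots, a log2 fold change of 2.10 (SE 0.359). Here too replicate 3 was the lowest of the 2,4-D roots, and the log2 fold change without it was 2.31.

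LOC_Os04g57630 had 84.4, 95.7 and 66.5 CPM in 2,4-D roots of 7 dpt, against 58.3, 40.4 and 32.3 CPM in mock roots. LOC_Os06g47760 had 14.0, 15.6 and 12.6 CPM in 2,4-D roots, against 6.08, 7.21 and 10.3 CPM in mock roots. These receptor-type genes differed less than the precursor did, with log2 fold changes of 0.91 and 0.84, which put both just under a doubling in this fit although the study lists them. LOC_Os02g41890, which is not in the study's lists, ran the other way with 40.2, 40.3 and 26.9 CPM in 2,4-D roots, against 68.4, 56.4 and 88.1 CPM in mock roots, a log2 fold change of -0.99. Without 2,4-D replicate 3 the log2 fold changes of these loci were 1.12, 1.00 and -0.74 in the same order. At this time 4 of the 5 loci had all 2,4-D libraries above all mock libraries (17.9% of all loci) and 1 had all below (19.3% of all loci), beside 5.66% of all loci that would be called higher and 8.67% lower by the rule used at the other times. Nothing is read from these counts because the choice used this contrast.

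At 14 dpt the precursor and the receptor gene LOC_Os07g01710 were higher in 2,4-D roots, 3.57-fold and 5.83-fold, and none of the 5 loci was called lower. LOC_Os02g41890 lay below mock in every library without reaching the fold threshold. Over all loci 4.85% were called higher at 14 dpt and 9.62% lower, that is 1100 and 2185 loci, or 1527 and 1755 when library totals alone set the scale. Among loci called higher at 7 dpt 47% were also called higher at 14 dpt and 0% were called lower. Nothing is read from the 0 called lower here either. The precursor was the 1 locus of the 5 called higher at both times, as were 1.31% of all loci and 20.1% of those called higher at 7 dpt. The median log2 fold change of the 5 loci was 0.81, beside -0.09 over all loci.

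The precursor had 339, 317 and 161 CPM in 2,4-D roots of 14 dpt, against 59.9, 120.3 and 48.7 CPM in mock roots. No values overlapped, and 2,4-D replicate 3 and mock replicate 2 came nearest to each other. The log2 fold change was 1.84 (SE 0.439, 95% interval 0.90 to 2.77, edgeR adjusted p = 0.00963). Without mock replicate 2, one of the libraries that stood apart, it was 2.33 (adjusted p = 0.00561), and without mock replicate 1 it was 1.69 (adjusted p = 0.0403).

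LOC_Os07g01710 had 74.2, 41.6 and 88.3 CPM in 2,4-D roots of 14 dpt, against 12.9, 9.08 and 13.0 CPM in mock roots. Its lowest 2,4-D library was at more than 3 times its highest mock library, the widest relative gap of the 5 loci at this time. The log2 fold change was 2.54 (SE 0.364, 95% interval 1.77 to 3.32, edgeR adjusted p = 0.000596). It was 2.62 without mock replicate 1 and 2.39 without mock replicate 2, with adjusted p = 0.00234 and 0.00290.

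LOC_Os04g57630, called at 1 dpt, had 82.0, 105.5 and 91.4 CPM in 2,4-D roots of 14 dpt, against 82.2, 29.9 and 47.2 CPM in mock roots. Mock replicate 1, the mock library of that time with the highest mean correlation to its own group, reached the level of the lowest 2,4-D library. The locus was not called (log2 fold change 0.81, SE 0.293, 95% interval 0.18 to 1.43, edgeR adjusted p = 0.0649). Without that library the log2 fold change was 1.27 (adjusted p = 0.00604) and the locus was called, which makes 3 of the 5 loci higher at 14 dpt, while without mock replicate 2 it was 0.52 (adjusted p = 0.186). The call for this receptor gene at 14 dpt thus rests on which mock libraries are kept.

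LOC_Os06g47760 had 10.4, 11.9 and 17.9 CPM in 2,4-D roots of 14 dpt, against 8.44, 9.74 and 7.41 CPM in mock roots. The groups were separate by less than 1 CPM, and the locus was not called (log2 fold change 0.65, SE 0.281, edgeR adjusted p = 0.118). Without mock replicate 1 the log2 fold change was 0.64 (adjusted p = 0.206) and without mock replicate 2 it was 0.76 (adjusted p = 0.125). LOC_Os02g41890 had 38.6, 46.6 and 43.9 CPM in 2,4-D roots, against 84.4, 53.8 and 71.5 CPM in mock roots. All 2,4-D libraries lay below all mock libraries, with a log2 fold change of -0.70 (SE 0.219, 95% interval -1.17 to -0.23, edgeR adjusted p = 0.0365), past the p threshold but short of the fold threshold. Without mock replicate 1 its log2 fold change was -0.54 (adjusted p = 0.135) and without mock replicate 2 it was -0.86 (adjusted p = 0.0199). At 14 dpt 3 of the 5 loci had all 2,4-D libraries above all mock libraries (13.5% of all loci) and 1 had all below (21.3% of all loci).

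**Figure D2:**
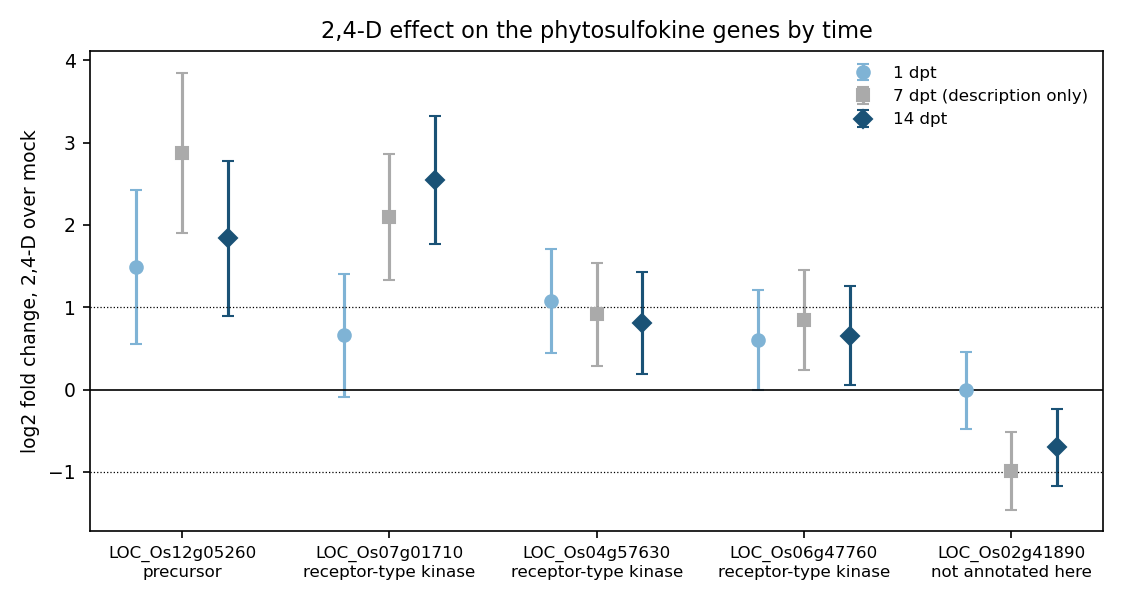
Log2 fold change of 2,4-D over mock roots (vertical axis) for each of the 5 loci at 1, 7 and 14 dpt, with 95% intervals from the fit of all 18 libraries, a line at 0 and dotted lines at the fold threshold of 1. LOC_Os07g01710 runs from 0.66 at 1 dpt to 2.54 at 14 dpt, the other loci have overlapping intervals at 1 and 14 dpt, and the 7 dpt values are a description only.

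Whether the 2,4-D effect itself differed between 14 and 1 dpt was tested as an interaction in the same fit. None of the 5 loci was called, where 1.45% of all loci were called in either direction, 0.665% with a higher and 0.788% with a lower effect at 14 dpt. At an unadjusted p under 0.05 the test gave LOC_Os07g01710 and LOC_Os02g41890, and DESeq2 called LOC_Os07g01710. For LOC_Os07g01710 the effect was larger at 14 dpt by 1.88 on the log2 scale (SE 0.495, 95% interval 0.83 to 2.94, unadjusted p = 0.00180, edgeR adjusted p = 0.0697). The adjusted p was 0.00890 with DESeq2, 0.0258 without 2,4-D replicate 2 of 14 dpt and 0.0296 without mock replicate 3 of 1 dpt, so whether this receptor gene is called late turns on the method and on 1 library.

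For LOC_Os02g41890 the difference between times was -0.69 (95% interval -1.35 to -0.03, unadjusted p = 0.0415, edgeR adjusted p = 0.247). The precursor differed by 0.34 (95% interval -0.95 to 1.64, adjusted p = 0.817), LOC_Os04g57630 by -0.27 (95% interval -1.15 to 0.61, adjusted p = 0.780) and LOC_Os06g47760 by 0.05 (95% interval -0.81 to 0.90, adjusted p = 0.971). Each of these 3 intervals leaves room for a difference of 0.6 or more in at least one direction, and a miss at the threshold does not show equal effects. Without mock replicate 1 of 14 dpt the difference was 0.20 for the precursor and turned to 0.19 for LOC_Os04g57630, and without mock replicate 2 it was 0.84 and -0.56. For LOC_Os02g41890 it was -0.53 without mock replicate 1 and -0.85 without mock replicate 2, for LOC_Os06g47760 0.04 and 0.15, and for LOC_Os07g01710 1.96 and 1.73, with none called.

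Over the 6 groups the precursor stood highest in 2,4-D roots of 7 dpt (383.8 ± 254.8 CPM) and 14 dpt (272.4 ± 97.0 CPM), which overlapped each other. Below them came 2,4-D roots of 1 dpt (89.8 ± 21.7 CPM) and mock roots of 14 dpt (76.3 ± 38.5 CPM), which also overlapped, then mock roots of 7 dpt (52.3 ± 4.68 CPM) and of 1 dpt (31.9 ± 2.81 CPM), which did not (SD, n = 3 each). It was the only one of the 5 with all 2,4-D libraries above all mock libraries at each time, as were 3.4% of all loci, and none was below at each time, as were 6.9% of all loci. These counts include 7 dpt, by which the precursor was chosen, so nothing is read from them. LOC_Os07g01710 stood highest in 2,4-D roots of 14 dpt (68.1 ± 23.9 CPM) and 7 dpt (52.2 ± 9.17 CPM), clear of its other 4 groups, which ran from 17.2 ± 5.88 CPM in 2,4-D roots of 1 dpt to 10.8 ± 3.65 CPM in mock roots of 1 dpt and overlapped throughout (SD, n = 3 each).

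LOC_Os04g57630 and LOC_Os06g47760 had the same order of treatments with less distance between neighbours. Their 2,4-D means ran from 65.4 to 93.0 CPM and from 9.79 to 14.1 CPM, against mock means from 30.9 to 53.1 CPM and from 6.47 to 8.53 CPM, and each group overlapped the next one in the order. LOC_Os02g41890 had the reverse order, with means of 35.8 to 51.5 CPM in 2,4-D roots and 51.9 to 71.0 CPM in mock roots. Its 2,4-D roots of 7 and 14 dpt lay below the other 4 groups except for mock roots of 1 dpt, whose lowest library was at 40.0 CPM.

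The make-up of the reads taken as receptor reads shifted between treatments. Of the reads of the 4 loci taken as receptors, LOC_Os07g01710 held 36.1%, 20.2% and 36.6% in 2,4-D roots of 14 dpt, against 6.86%, 8.86% and 9.37% in mock roots. At 1 dpt its share was 9.84%, 10.1% and 15.5% in 2,4-D roots, against 13.6%, 13.5% and 6.16% in mock roots, so the gap of 14 dpt was not there at 1 dpt. LOC_Os02g41890 held 37.2%, 38.0% and 32.6% in 2,4-D roots of 1 dpt, against 52.1%, 46.1% and 56.1% in mock roots, although its own CPM overlapped at that time. At 14 dpt it held 18.8%, 22.7% and 18.2% in 2,4-D roots, against 44.9%, 52.5% and 51.4% in mock roots. These shares of counts are not corrected for transcript length, which the files do not give, so they are compared between libraries and not between genes.

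LOC_Os04g57630 held 44.1% to 46.6% of these reads in 2,4-D roots of 1 dpt, against 29.4% to 34.2% in mock roots, and 37.8% to 51.3% against 29.1% to 43.7% at 14 dpt, where the ranges met. LOC_Os06g47760 held 4.10% to 9.50% over all 18 libraries. With 3 libraries a group, an exact two-sided permutation test of such a share cannot go below p = 0.1, and none was run.

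**Figure D3:**
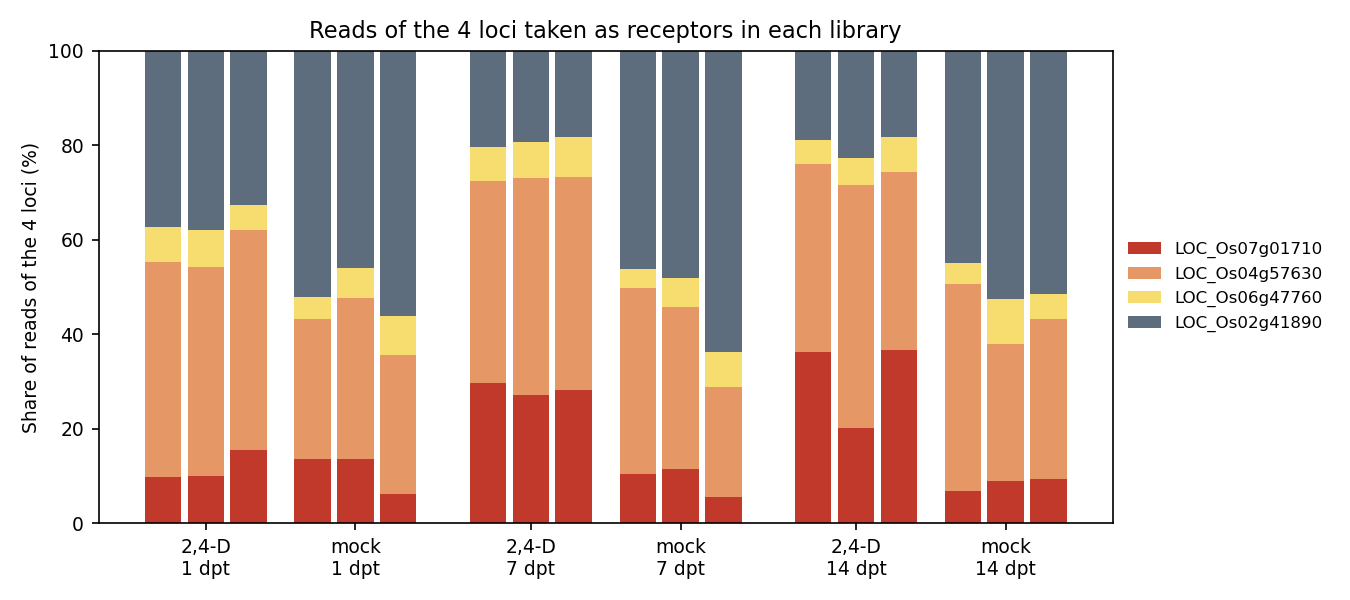
Share of the reads of the 4 loci taken as receptors (vertical axis, %) that each locus held in every library, 3 bars for each treatment and time with 2,4-D left of mock. LOC_Os07g01710 (red) holds 20.2% to 36.6% in 2,4-D roots of 14 dpt and 6.86% to 9.37% in mock roots, and LOC_Os02g41890 (grey) is smaller in 2,4-D roots at each time.

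The precursor was also set against the 4 loci taken as receptors, as precursor reads per read of those loci. They include LOC_Os02g41890, which no source used here annotates. It held on average 51.4% of their reads in mock roots and 35.9% in 2,4-D roots of 1 dpt. They leave out LOC_Os02g05970, which the study describes as a phytosulfokine receptor precursor. The ratio was 0.629, 0.506 and 0.721 in 2,4-D roots of 1 dpt, against 0.281, 0.392 and 0.297 in mock roots. At 7 dpt it was 1.56, 3.21 and 1.20 in 2,4-D roots, against 0.317, 0.460 and 0.404 in mock roots. At 14 dpt it was 1.65, 1.54 and 0.667 in 2,4-D roots, against 0.319, 1.17 and 0.350 in mock roots. The ratio thus kept the treatments apart at 1 dpt and not at 14 dpt, where mock replicate 2, one of the libraries that stood apart, lay above 2,4-D replicate 3. The ratio of 7 dpt is a description, because the choice of loci used that time.

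Other genes with a known or likely place around phytosulfokine were taken from the descriptions in the study's tables, which list genes changed at 7 dpt, so their counts at 1 and 14 dpt are not independent of that time. LOC_Os02g05970, described as a further phytosulfokine receptor precursor, had 18.5, 24.7 and 21.1 CPM in 2,4-D roots of 1 dpt, against 3.59, 2.97 and 8.38 CPM in mock roots. It was higher at 1 dpt (log2 fold change 2.12, SE 0.555, edgeR adjusted p = 0.0218). At 14 dpt it had 3.40, 5.61 and 2.27 CPM in 2,4-D roots, against 4.75, 10.5 and 1.73 CPM in mock roots, with a log2 fold change of -0.58 (adjusted p = 0.495). Its values were thus set apart at 1 dpt and overlapped at 14 dpt, and the difference between the effects of -2.69 did not pass the test (adjusted p = 0.0872). At 7 dpt, as a description, its log2 fold change was 1.56, with all 2,4-D libraries above all mock libraries.

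Of the 3 kinases described as BAK1-interacting or somatic embryogenesis receptor-like (SERK), 2 were called higher at 1 dpt and 1 at 14 dpt, and none lower. Beside these counts stand 4.22% and 4.85% of all loci called higher and 39% and 47% of those called higher at 7 dpt. Of those called higher at 7 dpt, 0.467% and 0% were called lower at 1 and 14 dpt. SERK is the family of the Arabidopsis co-receptor. By the study's tables the called loci were those described as BAK1-interacting. The study's discussion, however, names both LOC_Os05g34270 and LOC_Os11g31540 as BRI1-associated receptor kinase 1 (BAK1). The median log2 fold change of the 3 kinases was 2.88 at 1 dpt and 0.11 at 14 dpt. LOC_Os01g66760, described as BAK1-interacting receptor-like kinase 1 and as ERECTA like kinase 1, averaged 12.8 ± 4.69 CPM in 2,4-D roots and 1.73 ± 0.152 CPM in mock roots of 1 dpt, and 10.5 ± 1.45 CPM against 2.38 ± 2.19 CPM at 14 dpt (SD, n = 3 each). It was the 1 called at both times (log2 fold changes 2.88 and 2.15, edgeR adjusted p = 0.00496 and 0.0113). LOC_Os05g34270, described in those tables as BAK1-interacting receptor-like kinase 1, was called at 1 dpt and not at 14 dpt, at 1.60 (edgeR adjusted p = 0.0391) and 0.11 (adjusted p = 0.898). Its mock libraries of 14 dpt ran from 55.4 to 209 CPM, with replicate 2 the highest. The difference between its effects did not pass the test (adjusted p = 0.245). The SERK-like LOC_Os11g31540 had 219.7, 347 and 358 CPM in 2,4-D roots of 1 dpt, against 11.3, 8.54 and 78.9 CPM in mock roots, and just missed the threshold (adjusted p = 0.0521). It was not called at 14 dpt either (log2 fold change -0.18, adjusted p = 0.921).

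The proton pump LOC_Os12g44150, described as H(+)-ATPase 11, was lower at both times. It averaged 22.2 ± 4.15 CPM in 2,4-D roots and 51.1 ± 4.85 CPM in mock roots of 1 dpt, and 23.6 ± 2.21 CPM against 52.7 ± 8.58 CPM at 14 dpt (SD, n = 3 each), with log2 fold changes of -1.20 and -1.16 (edgeR adjusted p = 0.00785 and 0.00570). The cyclic nucleotide-binding transporter LOC_Os06g10580 averaged 34.5 ± 9.08 CPM in 2,4-D roots and 8.81 ± 5.74 CPM in mock roots of 1 dpt (SD, n = 3 each) and was called higher there (log2 fold change 1.98, adjusted p = 0.0165). At 14 dpt its log2 fold change was 0.19 (adjusted p = 0.819).

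The 11 subtilases, the family that holds the proteases that cut the precursor in Arabidopsis, held genes called in both directions. Of them 5 were called higher and 3 lower at 1 dpt, and 3 higher and 4 lower at 14 dpt, with a median log2 fold change of 0.93 and 0.47, beside 0.02 and -0.09 over all loci. Of all loci 4.22% were called higher and 7.01% lower at 1 dpt, and 4.85% and 9.62% at 14 dpt, but these subtilases were listed for a change at 7 dpt, where 39% and 47% of the loci called higher were also called higher at 1 and 14 dpt. The matching share for loci called lower at 7 dpt was not computed. Nothing is read from the counts about the family. LOC_Os02g16940 averaged 107 ± 24.4 CPM in 2,4-D roots and 5.05 ± 4.86 CPM in mock roots of 1 dpt (SD, n = 3 each; log2 fold change 4.43, edgeR adjusted p = 0.0161) and was not called at 14 dpt (1.27, adjusted p = 0.380). LOC_Os02g10520 averaged 18.2 ± 6.67 CPM in 2,4-D roots and 147 ± 58.9 CPM in mock roots of 1 dpt, and 4.46 ± 1.41 CPM against 61.4 ± 22.8 CPM at 14 dpt (SD, n = 3 each), and was lower at both times (-3.02 and -3.78, adjusted p = 0.0205 and 0.00552). LOC_Os02g17150 was the 1 subtilase whose effect differed between times. It had 5.48, 3.08 and 2.11 CPM in 2,4-D roots of 1 dpt, against 0.992, 1.11 and 3.64 CPM in mock roots, and 0.227, 0.944 and 0.585 CPM in 2,4-D roots of 14 dpt, against 6.63, 10.2 and 7.59 CPM in mock roots. The difference between its effects was -4.67 (adjusted p = 0.0151). None of these 11 is known from the sources used here to act on phytosulfokine.

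**Figure D4:**
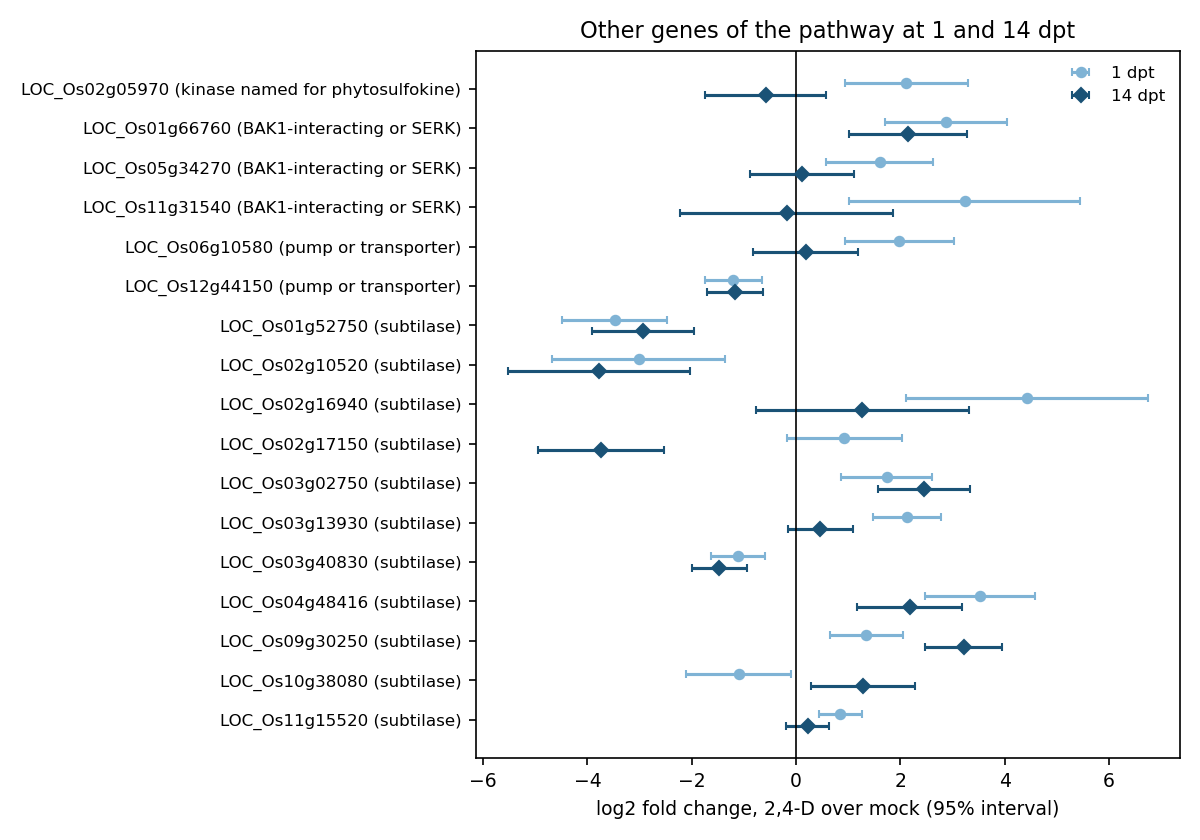
Log2 fold change of 2,4-D over mock roots (horizontal axis, with 95% intervals) at 1 dpt (light) and 14 dpt (dark) for 17 further genes described as receptor, BAK1-interacting or SERK kinases, pump or transporter, and subtilases. The subtilases lie on both sides of 0, the proton pump LOC_Os12g44150 lies below 0 at both times, and LOC_Os02g05970 lies above 0 at 1 dpt and not at 14 dpt.

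Loci with the most similar pattern were taken as those with the highest Pearson correlation of log2 CPM over the 18 libraries, given as a description because all points share their libraries and the treatment. For the precursor these were the sugar transporter gene LOC_Os07g37320 (r = 0.956), the protein phosphatase 2C gene LOC_Os04g37660 (0.956), LOC_Os01g67420 (0.949), the O-fucosyltransferase gene LOC_Os01g62390 (0.942) and LOC_Os01g07350 (0.941). LOC_Os07g37320 averaged 401 ± 47.2 CPM in 2,4-D roots and 130.4 ± 135 CPM in mock roots of 14 dpt (SD, n = 3 each), so its mock libraries of that time spread as those of the precursor did. For LOC_Os07g01710 the nearest was LOC_Os01g52050 (0.986), described as a leucine-rich repeat receptor-like kinase, followed by LOC_Os04g42784 (0.980) and LOC_Os02g57090 (0.980). LOC_Os01g52050 averaged 301 ± 56.2 CPM in 2,4-D roots and 112 ± 7.97 CPM in mock roots of 14 dpt, and 128 ± 21.7 CPM against 109 ± 23.6 CPM at 1 dpt (SD, n = 3 each), the same late separation.

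For LOC_Os04g57630 the most similar were LOC_Os11g26594 (0.933), LOC_Os06g39640 (0.920) and LOC_Os04g58910 (0.919), and for LOC_Os06g47760 they were the PLAC8-family gene LOC_Os12g31540 (0.946), LOC_Os04g40090 (0.930) and LOC_Os07g42160 (0.929). For LOC_Os02g41890 they were the basic helix-loop-helix gene LOC_Os04g47810 (0.936), LOC_Os06g07230 (0.921) and LOC_Os06g30480 (0.901). LOC_Os04g47810 averaged 62.9 ± 10.4 CPM in 2,4-D roots and 156 ± 45.4 CPM in mock roots of 14 dpt (SD, n = 3 each), lower in 2,4-D roots as LOC_Os02g41890 was.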

How the data were processed

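Reads were aligned by the authors with Rsubread (MSU rice genome, version 7), after a quality check in RSeQC, and counted with featureCounts. The deposited values are raw counts for each transcript, without normalization. The kit kept strand. Whether the counting used it, and how it treated reads that match more than 1 locus, is not given in the sources used here. Loci with near-identical copies are therefore uncertain. No gene lengths were given, and levels were not compared between genes. Isoform rows were summed to loci (66860 rows, 56508 loci). The filter used CPM on library totals. Groups and replicate numbers came from the sample labels.

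Treatments were compared by quasi-likelihood tests (edgeR 4.0.16, robust) with TMM factors in R 4.3.3, in a group-means fit of all 18 libraries. The study's filter of 10 CPM in 2 libraries was replaced by 1 CPM in 3, to take in weakly expressed loci, and was run as an alternative. All 5 loci pass either filter. Standard errors were taken as the log2 fold change over the square root of F. Correlations used log2 CPM with a prior count of 2. Alternatives were DESeq2 1.42.0, limma-voom (limma 3.58.1), RLE factors, library totals alone, other filters, the 6 libraries of a time, transcript rows, a replicate block, no fold threshold and leaving out each library. A fit of the 12 libraries of 1 and 14 dpt was added after the data were seen. The test was checked on simulated data. Replicates of a group differed by more than sampling noise (chi-square per degree of freedom 8.47 to 109), so each library counted once.

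The 5 loci and the gene lists were chosen with earlier results of these data known. Named genes were the 5 loci, up to 3 called genes of each list with the largest change, and the loci most similar to each of the 5 over the libraries, 5 for the precursor and 3 for each other. LOC_Os11g31540 was named outside that rule after its values were seen, and the GH3, NIP and PsbP genes are the markers chosen for the tissue and the treatment. Gene names come from the study's tables. Plots used pandas 2.3.3 and matplotlib 3.10.9.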

Additional observations from a re-analysis of the deposited data

How the results depend on the processing

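The count of loci called higher at 1 dpt was 1 without a filter on low counts and 0 with a replicate block, and 0 to 2 with single libraries left out. At 14 dpt it was 2 to 3 with single libraries left out, and 1 locus, LOC_Os02g41890, was called lower without a fold threshold. The count whose effect differed between 14 and 1 dpt was 1 with DESeq2 and 0 to 1 with single libraries left out. The count called lower at 1 dpt stayed at 0 in all alternatives. The log2 fold change of LOC_Os02g41890 at 1 dpt turned above 0 with library totals alone (0.0400), limma-voom (0.0261), a replicate block (0.0134), no filter (0.0124), the 12 libraries of 1 and 14 dpt (0.00476) and transcript rows (0.00243), and ran from -0.18 to 0.10 with single libraries left out. The difference between times for LOC_Os06g47760 turned to -0.0698 with limma-voom and -0.0352 with a replicate block, and ran from -0.22 to 0.32 with single libraries left out, and that of LOC_Os04g57630 ran from -0.56 to 0.19. The causes were not tested. Of the other values 217 were rated the same under the alternatives, and 338 were with single libraries left out. For the tested comparisons this means the same direction and side of the threshold. For 7 dpt it means the same direction and a shift smaller than the spread within groups, with no threshold. At that time LOC_Os04g57630 ran from 0.74 to 1.25 with single libraries left out. Replicate numbers were not taken as pairs in the main fit. The deviations of libraries of the same number correlated at -0.48 to -0.02 at 1 and 7 dpt, and at -0.22, 0.32 and 0.20 at 14 dpt. Deviations from means of 3 libraries cannot settle whether the numbers are pairs. Over all loci the block gave 618 higher and 602 lower at 1 dpt, against 957 and 1591 without it, and 717 and 1313 at 14 dpt, against 1100 and 2185. Library totals alone moved the median over all loci at 14 dpt to 0.09, against -0.09 with TMM. Leaving out 1 library leaves 2 in its group, which lowers what the test can call. Of the 5 loci LOC_Os06g47760 had the fewest counts, 62 to 245 per library, and the precursor had the widest intervals.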
